A study of Homo sapiens with 8 samples.

Results

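The MYC, MAX and MXD network was examined in RNA-seq data labelled as the multiple myeloma (MM) cell lines JJN3 and H929. The cells were given 50 nM THZ1, which inhibits CDK7 covalently, or the vehicle DMSO for 24 h. The 10 members of the network here were MYC, MAX, MXD1, MXD3, MXD4, MXI1, MNT, MLX, MLXIP and MGA. They were chosen by symbol, of 63677 genes in the count tables, and the symbols were mapped to Ensembl IDs by the gene names deposited for JJN3. There were 4 groups of 2 libraries each, JJN3 with DMSO, JJN3 with THZ1, and the libraries labelled H929 DMSO and H929 THZ1, 8 libraries in all. Each line name is that of a single established cell line. No label says that the 2 libraries of a group came from separate cultures. The p-values thus measure only the spread between these libraries, which may be technical.

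MYC is a transcription factor that binds the DNA hexamer CACGTG, the E-box, as a dimer with MAX, and drives genes of ribosome production, metabolism and cell division. MXD1, MXD3, MXD4, MXI1, MNT and MGA compete for MAX, and their dimers with it bring repressor complexes to the same kind of site. MLX is a second common partner in the network, which pairs with the glucose-sensing factor MLXIP (also called MondoA), and also with MXD1, MXD4 and MNT. MYC is a central oncogene of MM.

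The promoters of the members were read from RefSeq on GRCh38, as 250 bases before to 50 bases after each start. The table held 14 promoters of 9 members, and none of MYC. CACGTG, which reads the same on both strands, stood in 3 of the 14, those of MLX, MXD4 and MNT, against 2548 of 35116 promoters of all genes (7.26%). These 3 are shown with the hexamer in capitals, since they are the member promoters that hold the letters the network itself binds, and TXNIP is shown with them because it is a known target of MLXIP and MLX. The sequences are the bases before the RefSeq start, 5′ to 3′, without those that lie inside the annotated gene, and each matched GRCh37 at 1 place on its chromosome, at chr17:40718868-40719089 (plus strand) for MLX, chr4:2263837-2264086 (minus strand) for MXD4, chr17:2304399-2304604 (minus strand) for MNT and chr1:145438240-145438489 (plus strand) for TXNIP. In TXNIP the capitals mark the paired motif of CACGNG, any 5 bases and CACGNG again, searched on both strands, which 20 of the 35116 promoters held (0.057%). A match describes the letters only.
MLX: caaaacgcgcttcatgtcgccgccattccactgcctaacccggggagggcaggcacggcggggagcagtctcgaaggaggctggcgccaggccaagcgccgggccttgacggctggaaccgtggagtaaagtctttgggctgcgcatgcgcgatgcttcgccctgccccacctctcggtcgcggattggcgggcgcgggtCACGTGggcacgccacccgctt
MXD4: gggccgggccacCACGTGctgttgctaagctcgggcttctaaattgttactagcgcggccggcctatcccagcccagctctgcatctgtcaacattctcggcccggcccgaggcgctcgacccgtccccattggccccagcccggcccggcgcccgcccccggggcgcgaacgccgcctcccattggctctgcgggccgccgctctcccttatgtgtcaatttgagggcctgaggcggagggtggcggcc
MNT: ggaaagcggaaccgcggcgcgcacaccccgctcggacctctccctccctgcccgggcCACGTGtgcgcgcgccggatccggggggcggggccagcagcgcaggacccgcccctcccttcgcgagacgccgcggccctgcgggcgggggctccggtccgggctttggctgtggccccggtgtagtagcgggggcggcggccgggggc
TXNIP: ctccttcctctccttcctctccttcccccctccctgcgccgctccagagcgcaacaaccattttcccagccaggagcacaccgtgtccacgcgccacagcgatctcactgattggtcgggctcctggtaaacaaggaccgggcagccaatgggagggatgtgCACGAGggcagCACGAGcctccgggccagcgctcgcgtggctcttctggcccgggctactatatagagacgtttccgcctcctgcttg

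Some features of the whole series touch every comparison. The total counts on genes lay between 17476443 and 19194371 per library, and the lowest count of any member was 97, for MXD3. Mitochondrial genes took 3.36% and 1.65% of the counts in JJN3 with DMSO and 5.34% and 6.63% with THZ1, and the part of this in the results was not tested. The libraries labelled H929 differed in more than treatment. Lambda genes held 99.99% and 98.0% of the light chain V counts under the H929 DMSO label, against 0.203% and 0.194% under the H929 THZ1 label. FGFR3, the gene activated by the translocation of H929, had 45 and 285 counts under the first of these labels, against 14117 and 13411. NSD2 had 6544 and 7026 counts, against 15702 and 16276. MAF had 18006 and 16310, against 2729 and 2942, beside 16305 and 16840 in JJN3 with DMSO. CCND1 was near the same under both labels, with 1766 and 1806 counts against 1540 and 1566. In the second library labelled H929 DMSO, 57 genes that were nearly silent in the first lay at 1.17% to 3.38% of their level in the THZ1-labelled libraries. Treatment and the source of the cells cannot be told apart under the H929 labels, and their values are given as those of the labels. Of 10 plasma cell markers, 8 or 9 were over 3 counts in each library (CD27 was at or near 0). Their summed level was 3852 to 4352 CPM (counts scaled to library size) in JJN3. It was 3365 and 3631 CPM under the H929 DMSO label and 12200 and 12227 CPM under the H929 THZ1 label. The 14 markers of other cell types summed to 37.2 to 133 CPM. The epithelial marker EPCAM held most of that sum in JJN3 and under the H929 DMSO label, with 1195 to 2391 counts. It had 1 and 6 counts under the H929 THZ1 label, where the T cell marker CD3E held most of it with 640 and 650 counts, against 15 to 75 in the other libraries. The T cell marker CD3D had at most 4 counts in any library. The part of these markers in the results was not tested.

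In JJN3, the levels of MYC and MLX fell after THZ1, and those of MXD1, MXD4, MXI1, MLXIP and MXD3 rose. Levels were compared with edgeR's quasi-likelihood test on TMM-normalised counts, with Benjamini-Hochberg adjustment over all 13984 genes tested, and a gene was called at an adjusted p under 0.05 and a log2 fold change beyond 0.5. All 10 members passed the filter on low counts. Of them, 2 were called lower and 5 higher, and over all genes tested 21.3% were called lower and 20.6% higher, 41.8% in all. The median log2 fold change of the members was 0.54, and that of all genes was -0.000361. In RNA of a whole culture, fewer cells that use a gene and less of its RNA per cell cannot be told apart. All levels here are relative to the other RNA of the same library. A change in the total RNA per cell would not show, and a gene said to rise may have risen only as a share.

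MYC had 22083 and 22167 counts in JJN3 with DMSO, and only 10047 and 12233 with THZ1. The groups did not overlap, though the share of all genes with groups apart was not counted. The spread between the THZ1 libraries was the larger one. Its mean level went from 1139 ± 5.07 to 647 ± 46.5 CPM (SD, n = 2), a log2 fold change of -0.80 (SE 0.0999, adjusted p = 5.13e-05). Of all genes tested, 12.7% had a lower log2 fold change. MYC lies on chromosome 8 of GRCh37 at 128747680 to 128755197, on the plus strand, and shares 194 exon bases with the antisense CASC11, which had 9 and 5 counts in the DMSO libraries, against 45 and 38 in the THZ1 libraries. Without 1 library at a time, the log2 fold change of MYC stayed between -0.87 and -0.73.

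MAX, the common partner, had 1826 and 1787 counts in JJN3 with DMSO and 1389 and 1370 with THZ1. After scaling to library size the mean level was 93.0 ± 2.08 CPM with DMSO and 80.6 ± 6.20 CPM with THZ1 (SD, n = 2). The difference did not pass the test, with a log2 fold change of -0.19 (SE 0.0834, adjusted p = 0.0664). The ratio of MYC to MAX, per kilobase of exon, was 12.4 and 12.7 in the DMSO libraries and 7.41 and 9.15 in the THZ1 libraries. MAX shares 822 exon bases with FNTB on the opposite strand, which had 78 and 87 counts in the DMSO libraries, against 65 and 62 in the THZ1 libraries. Under the H929 labels FNTB had 110 and 116 counts with DMSO, against 52 and 59 with THZ1.

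The MXD genes and MXI1, whose products repress through SIN3 complexes, all rose in JJN3. MXD1 had 305 and 315 counts in the DMSO libraries, against 1223 and 915 in the THZ1 libraries. Its log2 fold change of 1.99 (SE 0.160, adjusted p = 2.94e-06) was the largest of the 10, above that of 97.0% of all genes tested. Relative to their mean, its THZ1 libraries differed from each other by more than the replicates of any other member in JJN3, at 62.8 ± 16.9 CPM (SD, n = 2), and the log2 fold change ran from 1.69 to 2.24 when 1 library was left out. MXD1 shares 237 exon bases with SNRNP27 on the same strand, which had 812 and 808 counts in the DMSO libraries, against 1034 and 710 in the THZ1 libraries.

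MXD4 rose from 518 and 431 to 925 and 1020 counts. Its log2 fold change was 1.23 (SE 0.105, adjusted p = 4.28e-06). MXI1, the most abundant of the 4 per kilobase of exon, went from 1297 and 1384 to 2174 and 2512 counts, a log2 fold change of 1.00 (SE 0.0803, adjusted p = 2.98e-06). For both genes every THZ1 library was above every DMSO library, which was not counted over all genes. MXD3 was the weakest, with 186 and 164 counts against 211 and 247, and a log2 fold change of 0.58 (SE 0.142, adjusted p = 0.00471). Without the second JJN3 DMSO library the value for MXD3 was 0.47 and it was no longer called. The exons of MXD3 overlap PRELID1 on the opposite strand over 1148 bases and RAB24 on the same strand over 926, and its counts are uncertain because no source says whether strand was used in counting.

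MNT and MGA, the larger MAX-binding repressors, were not called. MNT had 373 and 323 counts in the DMSO libraries, against 409 and 451 in the THZ1 libraries, and its log2 fold change of 0.498 lay just under the limit of 0.5 (SE 0.116, adjusted p = 0.0034). MGA, a scaffold of a Polycomb-related complex, had 1175 and 1140 counts in the DMSO libraries, against 1221 and 1182 in the THZ1 libraries, with a log2 fold change of 0.25 (SE 0.0884, adjusted p = 0.0303). Both were under the fold limit, with adjusted p under 0.05.

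The other branch of the network moved in opposite directions in JJN3. MLX had 1519 and 1539 counts in the DMSO libraries, against 446 and 529 in the THZ1 libraries, and its log2 fold change of -1.46 (SE 0.0874, adjusted p = 8.82e-07) was the lowest of the members. Of all genes tested, 1.91% had a lower one. MLXIP had 777 and 698 counts in the DMSO libraries, against 1287 and 1257 in the THZ1 libraries, a log2 fold change of 0.98 (SE 0.0957, adjusted p = 9.78e-06). Per kilobase of exon, the ratio of MLXIP to MLX was 0.157 and 0.139 with DMSO and 0.883 and 0.727 with THZ1. MLX lies on chromosome 17 at 40719090 to 40725257, and its exons share 775 bases with PSMC3IP on the opposite strand, which had 262 and 224 counts in the DMSO libraries, against 187 and 196 in the THZ1 libraries. TXNIP, a brake on glucose uptake whose gene MLXIP and MLX activate, had 981 and 1006 counts in the DMSO libraries, against 4104 and 2970 in the THZ1 libraries, a log2 fold change of 2.04 (SE 0.157, adjusted p = 2.42e-06). ARRDC4, the other target of the pair, had 0 counts in all 4 JJN3 libraries, which allows up to 0.172 CPM in each at a floor of 3 counts, for counting error only.

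**Figure D1:**
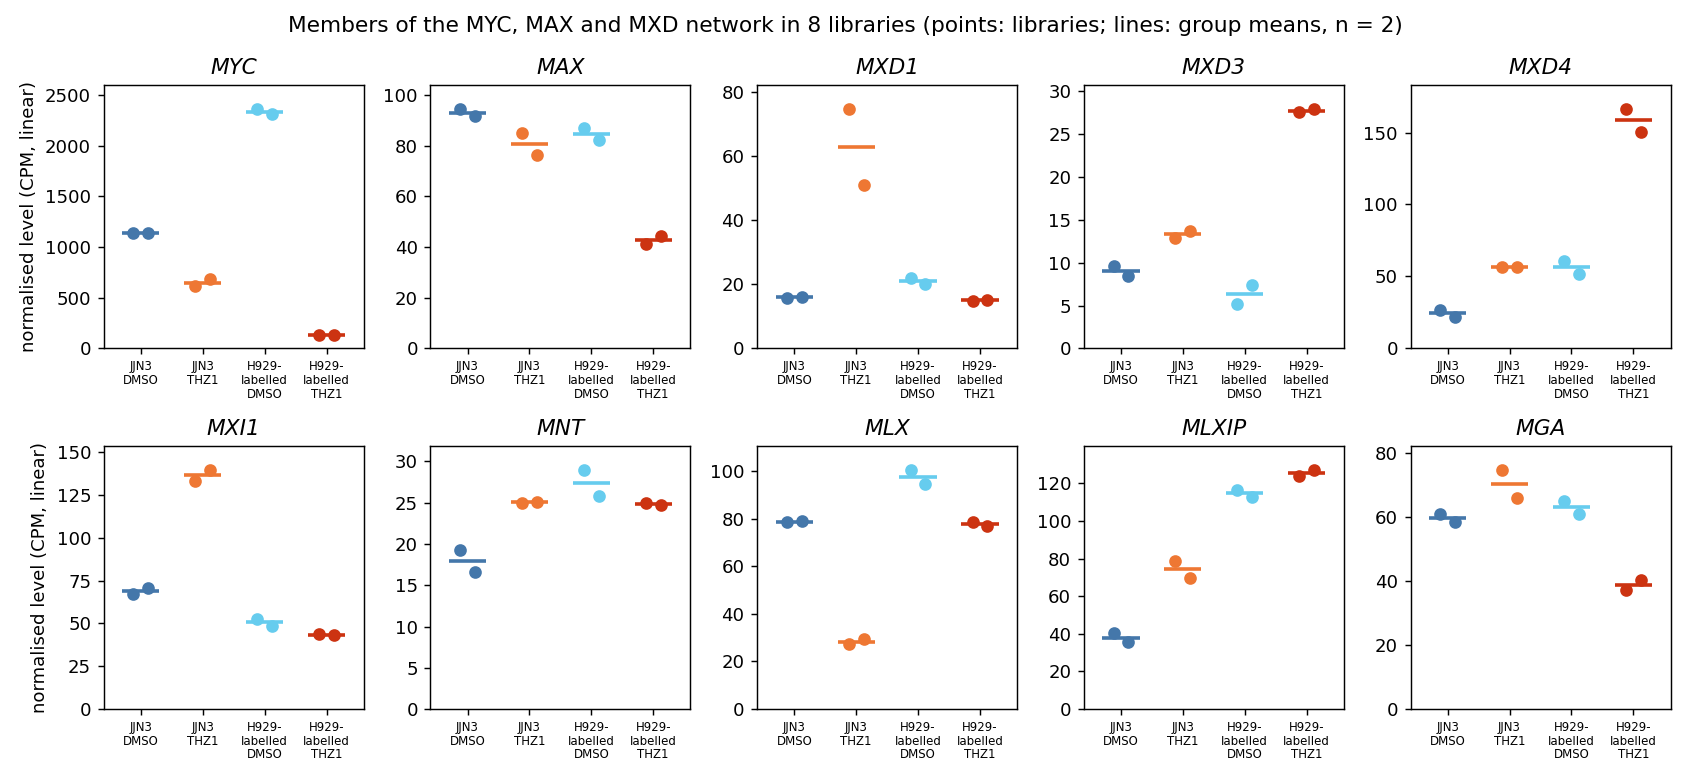
Normalised level (CPM after TMM over the 8 libraries, linear axis from 0) of each member, with 1 point per library and a line at the mean of each group (n = 2). In JJN3, MYC and MLX are lower with THZ1 and MXD1, MXD3, MXD4, MXI1 and MLXIP higher, and under the H929 labels MYC goes from a mean of 2338 to 134 CPM.

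Under the H929 labels, MYC, MAX and MGA were lower in the THZ1-labelled libraries and MXD3 and MXD4 higher. The other 5 members were not called, and all 10 passed the filter. Over all 14863 genes tested between these labels, 32.6% were called lower and 33.1% higher, 65.7% in all. MYC had 43929 and 41711 counts in the DMSO-labelled libraries and 2577 and 2513 in the THZ1-labelled libraries, a log2 fold change of -4.12 (SE 0.0663, adjusted p = 5.31e-17), below which lay 5.28% of all genes. Its replicate libraries lay close together at 2338 ± 36.9 and 134 ± 1.92 CPM (SD, n = 2).

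MAX had 1614 and 1487 counts in the DMSO-labelled libraries, against 787 and 836 in the THZ1-labelled libraries, a log2 fold change of -0.98 (SE 0.0674, adjusted p = 1.39e-09). MGA went from 1207 and 1098 to 707 and 763 counts, with -0.69 (SE 0.0730, adjusted p = 2.56e-07). MXD3, the least abundant member under the DMSO label with 97 and 134 counts, had 524 and 529 in the THZ1-labelled libraries, a log2 fold change of 2.14 (SE 0.133, adjusted p = 3.79e-10). None of these groups overlapped, but how many of all genes had groups without overlap was not counted. MXD4 went from 1132 and 934 to 3166 and 2852 counts, a log2 fold change of 1.50 (SE 0.0741, adjusted p = 2.28e-11).

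MXD1 had 410 and 361 counts in the DMSO-labelled libraries, against 283 and 287 in the THZ1-labelled libraries, and its log2 fold change of -0.48 (SE 0.103, adjusted p = 0.000446) stayed just under the limit. Without the second library labelled H929 DMSO it was -0.53 and called lower. MXI1 had 979 and 874 counts against 836 and 816, with -0.21 (adjusted p = 0.0137). MLX had 1869 and 1703 counts against 1497 and 1454, with -0.32 (adjusted p = 0.000118), and MLXIP had 2165 and 2033 against 2351 and 2408, with 0.14 (adjusted p = 0.0314). MNT had 539 and 465 counts against 476 and 469, with -0.13 (SE 0.0900, adjusted p = 0.183), and was the member here whose adjusted p was over 0.05. TXNIP had 3297 and 2755 counts in the DMSO-labelled libraries, against 3123 and 3287 in the THZ1-labelled libraries, a log2 fold change of 0.04 (adjusted p = 0.595), and its interaction with the line was -1.99 (SE 0.193, adjusted p = 1.87e-07). ARRDC4 had 0 and 4 counts against 137 and 164.

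The change between DMSO and THZ1 labels differed between the lines for most members, in an interaction test over all 8 libraries. The value is the log2 fold change under the H929 labels minus that in JJN3. It was below 0 and called for 7 members and above 0 and called for 2, where 25.5% and 28.1% of the 16122 genes tested were, 53.7% in all. The largest differences were -3.31 for MYC (SE 0.109, adjusted p = 9.37e-13) and -2.46 for MXD1 (SE 0.212, adjusted p = 4.6e-08). MXD3 had 1.57 (SE 0.206, adjusted p = 5.76e-06) and MLX 1.15 (SE 0.105, adjusted p = 9.78e-08). For MXD4, which was higher with THZ1 under both sets of labels, the difference was 0.28 (SE 0.140, adjusted p = 0.0940) and did not pass. These differences hold any difference in the source of the H929-labelled libraries.

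**Figure D2:**
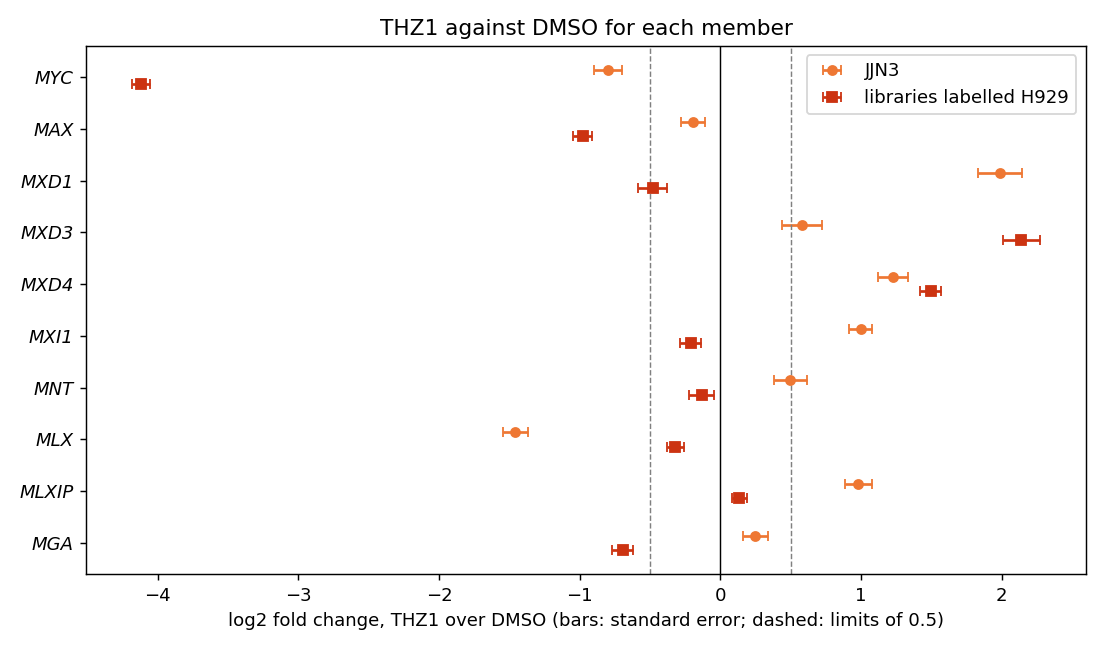
Log2 fold change, THZ1 over DMSO, of each member in JJN3 (circles) and between the libraries labelled H929 (squares), with bars of 1 standard error and dashed lines at -0.5 and 0.5. MYC is lower and MXD3 and MXD4 higher in both, while MXD1, at 1.99 in JJN3 and -0.48 under the H929 labels, and MXI1, at 1.00 and -0.21, stand apart. The squares hold treatment and the source of the cells together, which cannot be told apart under the H929 labels.

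Among the vehicle controls, MYC was higher under the H929 DMSO label than in JJN3 with DMSO. The log2 fold change between them, H929 label over JJN3, was 1.04 (SE 0.0755, adjusted p = 3.02e-09). MLXIP (1.59, SE 0.0823), MXD4 (1.20, SE 0.104) and MNT (0.61, SE 0.104) were also called higher, and MXD3 (-0.51, SE 0.161, adjusted p = 0.0089) lower, so 4 members were higher and 1 was lower, where 30.8% and 30.7% of all genes were, 61.5% in all. MXD3 lost its call without the first library of JJN3 DMSO, of JJN3 THZ1 or of the H929 DMSO label, and its value over all alternatives ran from -0.79 to -0.28. MAX (-0.14), MXD1 (0.40), MXI1 (-0.45), MLX (0.31) and MGA (0.08) were not called.

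Between the THZ1 groups, 5 members were lower under the H929 label than in JJN3 and 4 were higher, where 32.3% and 31.6% of all genes were, 63.9% in all. MYC had a log2 fold change of -2.27 (SE 0.0796, adjusted p = 4.28e-13), MXD1 of -2.06 (SE 0.145), MXI1 of -1.65 (SE 0.0749), MAX of -0.91 (SE 0.0792) and MGA of -0.86 (SE 0.0846). MXD4 (1.48), MLX (1.45), MXD3 (1.06) and MLXIP (0.76) were higher. MNT did not differ beyond its error, with -0.00867 (SE 0.102, adjusted p = 0.948), a value whose sign changed with the scaling. The MYC level thus had the order H929-labelled DMSO, JJN3 DMSO, JJN3 THZ1 and H929-labelled THZ1, with no overlap between neighbours. These comparisons share libraries with those above, and cell line and count table cannot be told apart in them.

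To compare levels between members, the normalised counts were divided by the length of all exons of the gene in kilobases. In JJN3 with DMSO, MYC stood at 187 ± 0.83 CPM per kilobase, MLX at 18.5 ± 0.0391, MAX at 14.9 ± 0.333 and MXI1 at 11.7 ± 0.453 (SD, n = 2). The other 6 lay between 1.90 and 3.56, and the libraries of MNT and MXD3, the last in this order, overlapped. The order depended on the length used. With the longest transcript as length, MXD1 was the lowest at 2.86, below MNT at 3.64 and MXD3 at 3.96. MLX, at 30.4, and MAX, at 29.5, then lay close together. MYC held 75.3% and 75.6% of the summed level of the 10 members with DMSO and 56.5% and 60.4% with THZ1. Under the H929 labels its share was 83.8% and 84.4% with DMSO and 22.0% and 22.1% with THZ1.

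The level of MYC was then set against the sum of the 6 genes whose products compete with it for MAX, MXD1, MXD3, MXD4, MXI1, MNT and MGA. In JJN3 this ratio was 7.48 and 7.64 with DMSO and 1.94 and 2.27 with THZ1. It was 13.4 and 14.3 in the libraries labelled H929 DMSO and 0.498 and 0.513 in those labelled H929 THZ1, the 2 libraries where the competitors together exceeded MYC. The sum of the 6 went from 25.0 and 24.3 to 51.8 and 49.0 CPM per kilobase in JJN3 and was 28.9 and 26.4, then 44.5 and 42.4, under the H929 labels. The genes behind the larger sum differed. In JJN3 with THZ1, MXI1 stood at 23.1 ± 0.806 and MXD1 at 9.89 ± 2.66 CPM per kilobase, while under the H929 THZ1 label MXD4 stood at 23.1 ± 1.62 and MXD3 at 5.85 ± 0.0597 (SD, n = 2). These are ratios of RNA, and no test was run on them.

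**Figure D3:**
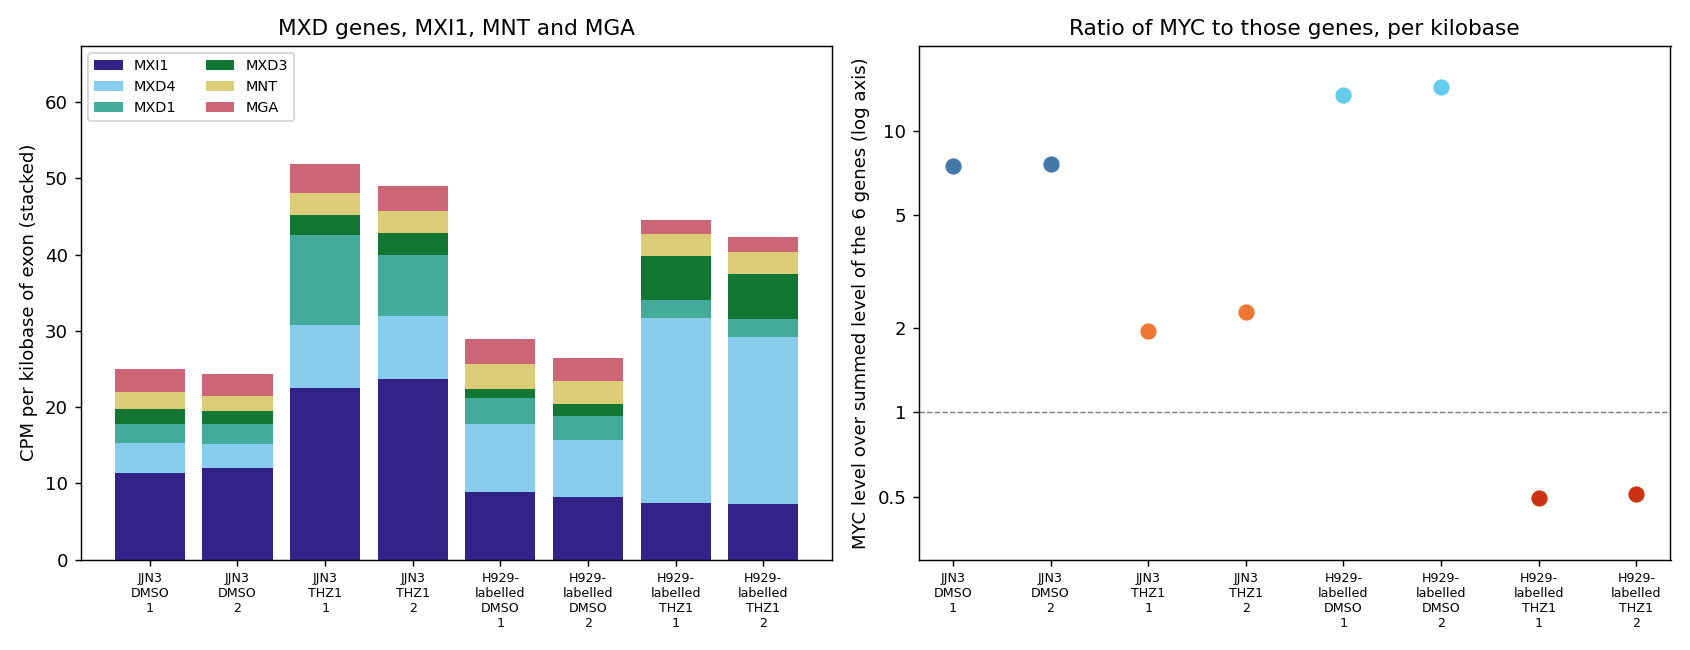
Left, the levels of MXI1, MXD4, MXD1, MXD3, MNT and MGA in each library, in CPM per kilobase of exon and stacked, and right, the ratio of MYC to their sum on a log axis with a dashed line at 1. The ratio goes from 7.48 and 7.64 to 1.94 and 2.27 in JJN3 and from 13.4 and 14.3 to 0.498 and 0.513 under the H929 labels, and MXI1 and MXD1 make up most of the sum in JJN3 with THZ1 and MXD4 most of it under the H929 THZ1 label.

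Other factors of the same protein class and the regulators of MYC gave mixed results in JJN3, where 21.3% of all genes were called lower and 20.6% higher. Of 9 further network genes, 8 were tested, of which 2 were called lower and 1 higher. The E-box factor TFAP4, a known MYC target, fell from 695 and 733 to 307 and 355 counts (-0.92, SE 0.101, adjusted p = 2.23e-05), and MITF, a lysosome and pigment cell regulator, rose from 1716 and 1660 to 2557 and 2316 (0.73, SE 0.0971). The MYC paralogues were low, at 46 to 62 counts for MYCN (0.08, SE 0.264, adjusted p = 0.823) and 24 to 55 for MYCL, which was called lower (-0.73, SE 0.277, adjusted p = 0.0407). MLXIPL, the paralogue of MLXIP, had at most 4 counts in any of the 8 libraries and was not tested.

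Of 14 cofactors, 5 were called higher and 2 lower in JJN3. BPTF, a chromatin remodelling subunit, rose by 0.89 on the log2 scale (SE 0.0849), and TRRAP, the scaffold through which MYC recruits histone acetyltransferases, by 0.62 (SE 0.0922). RUVBL1, an ATPase of the same complexes, fell from 4844 and 5185 to 1680 and 2013 counts (-1.25, SE 0.0851, adjusted p = 1.25e-06), and the acetyltransferase KAT5 had -0.71 (SE 0.105). With total-count scaling, or with no filter on low counts, 2 of the 14 were higher. Of 14 regulators of MYC stability and transcription, 13 were tested, 3 rose and 3 fell, shares near the 20.6% and 21.3% of all genes, so that the single genes below say nothing of the list. The ubiquitin ligase MYCBP2 (0.83, SE 0.0771) and the kinase GSK3B (0.78, SE 0.0805), which marks MYC for degradation, rose, and CIP2A, which protects MYC from dephosphorylation (-0.59, SE 0.0796), and the plasma cell factor IRF4, an activator of MYC in myeloma (-0.55, SE 0.0926), fell.

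Under the H929 labels the cofactors had 4 lower and 2 higher, the regulators 3 lower and 5 higher, and the further network genes 3 lower and 2 higher, beside 32.6% lower and 33.1% higher over all genes, so none of the 3 lists had a larger share called than the 65.7% of all genes. RUVBL1 (-1.69, SE 0.0606) and TFAP4 (-1.27, SE 0.0769) were lower there too. MITF, from 1048 and 976 to 166 and 169 counts, was lower (-2.64, SE 0.0911) and IRF4, from 11544 and 11503 to 23269 and 22981 counts, higher (0.96, SE 0.0565), each opposite to JJN3, with interaction values of -3.36 and 1.52.

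Genes that MYC is known to activate were mostly lower in JJN3 after THZ1, where 21.3% of all genes were called lower and 20.6% higher. Of 32 genes of ribosome biogenesis, 22 fell and 0 rose, with a median log2 fold change of -0.73. RRP9, a component of the U3 snoRNP, had -1.45 (SE 0.108), and MRTO4, a ribosome assembly factor, went from 2915 and 3154 to 875 and 1162 counts (-1.39, SE 0.0993, adjusted p = 1.58e-06). Of 18 genes of nucleotide, polyamine and one-carbon synthesis, 8 fell and 0 rose, with a median of -0.45. The dCTP hydrolase DCTPP1 (-1.14, SE 0.0944) and IMPDH2, which commits IMP to guanine nucleotides (-1.14, SE 0.0886), led them.

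Of 22 genes of growth, mitochondria and metabolism, 12 fell and 1 rose, with a median of -0.53. The nucleoside transporter SLC29A2 went from 565 and 582 to 149 and 166 counts (-1.67, SE 0.116, adjusted p = 1.36e-06), the mitochondrial chaperonin HSPE1 had -1.12 (SE 0.115), and the gene that rose was PKM, the pyruvate kinase (0.66, SE 0.126, adjusted p = 0.000966). Of 11 cell cycle genes, 7 fell and 0 rose, with a median of -0.80. CDK4, the kinase that opens the cell cycle, went from 1360 and 1521 to 437 and 634 counts (-1.24, SE 0.122), and TERT, the catalytic subunit of telomerase, had -1.22 (SE 0.192). Over these 83 genes, 49 were lower and 1 was higher, with a median of -0.61, beside 21.3% lower and 20.6% higher over all genes. For the lists with 0 genes called higher by edgeR, DESeq2 called 0 higher too, and at an unadjusted p under 0.05 there was 1 gene higher in nucleotide, polyamine and one-carbon synthesis and 0 in ribosome biogenesis and in the cell cycle.

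Of 12 genes that MYC is known to repress, 10 were tested in JJN3. Of these, 6 rose and 0 fell, beside 20.6% higher and 21.3% lower over all genes. DESeq2 gave the same counts, and 0 were lower at an unadjusted p under 0.05. The median log2 fold change was 0.80. CDKN1C, an inhibitor of cyclin-dependent kinases, went from 271 and 255 to 710 and 811 counts (1.72, SE 0.104, adjusted p = 9.01e-07), and the stress gene GADD45A from 1281 and 1273 to 2354 and 2637 (1.16, SE 0.0770). The lists were assembled from general knowledge of MYC, with earlier results of these data known, and their counts are descriptions with no test of the list.

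Under the H929 labels, 49 of the 83 activated genes were lower and 6 were higher, with a median of -0.74 beside 0.01 over all genes. Of all genes tested between these labels, 32.6% were called lower and 33.1% higher. Ribosome biogenesis had 24 of 32 lower and 2 higher (median -1.04), nucleotide, polyamine and one-carbon synthesis 10 of 18 lower and 0 higher, also with DESeq2 and at an unadjusted p (-0.68), growth, mitochondria and metabolism 11 of 22 lower and 2 higher (-0.55), and the cell cycle genes 4 of 11 lower and 2 higher (-0.28). SLC29A2, with 1067 and 1019 counts against 5 and 12, was the lowest of the 83. The repressed genes had 6 higher and 4 lower of 12. The shares called lower of these and of the cell cycle genes were near that of all genes. CDKN1C (-4.21, SE 0.179) and GADD45A (-0.89, SE 0.0791) were lower under the THZ1 label, opposite to JJN3, with interaction values of -5.92 and -2.04. CDKN2C, named after its values were seen, had 0 and 205 counts against 10835 and 10459 and is one of the 57 genes that were nearly silent in the first library labelled H929 DMSO.

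**Figure D4:**
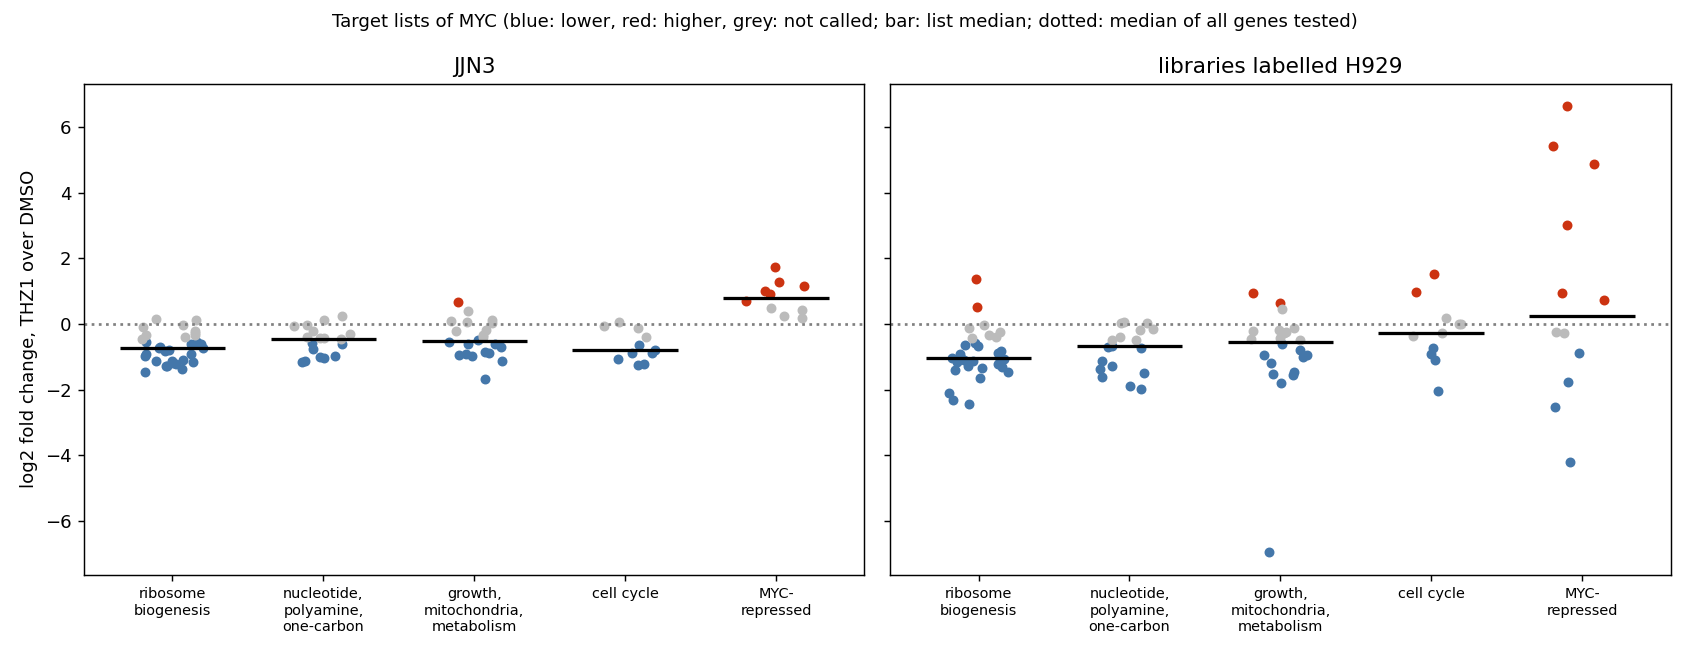
Log2 fold change, THZ1 over DMSO, of each gene of the 4 MYC-activated lists and of the MYC-repressed list, in JJN3 (left) and between the libraries labelled H929 (right), with called genes in blue (lower) and red (higher), others in grey, a bar at the list median and a dotted line at the median of all genes. In JJN3 49 of 83 activated genes are called lower and 1 higher, and under the H929 labels 49 and 6, where the repressed genes spread in both directions. Over all genes tested, 21.3% are called lower and 20.6% higher in JJN3, and 32.6% and 33.1% under the H929 labels.

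The genes whose normalised log2 level followed MYC most closely over the 8 libraries, among 9675 genes whose average log2 CPM reached 3, were NLN (Pearson r = 0.999), ZHX2 (r = 0.998), SLC27A2 (r = 0.998), FERMT1 (r = 0.998) and HLA-DMB (r = 0.997). The 8 points fall into 4 groups, so these values describe the order of the groups, and no test was made. NLN, for example, had 2794 and 2798 counts in JJN3 with DMSO, 1558 and 1910 with THZ1, 5300 and 4961 under the H929 DMSO label and 507 and 534 under the H929 THZ1 label. In JJN3, 4 of the 5 were called lower after THZ1, where 21.3% of all genes were. Their log2 fold changes ran from -0.73 for ZHX2 to -1.16 for HLA-DMB, and NLN stood at -0.499, just under the limit. The JJN3 libraries were among the 8 used to pick these genes, so a fall with MYC there follows in part from the choice.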

How the data were processed

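RNA of cells labelled JJN3 and H929 was sequenced as single-end reads. Per the submitters' notes and the methods, the authors aligned them to hg19 with STAR 2.5.2a, and deposited a featureCounts count for each Ensembl gene, not normalized. The strand setting is not given in the sources used here. The deposited tables of the authors' own DESeq2 comparisons (log2 fold changes, p-values) were used for gene symbols only.

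The comparison of THZ1 with DMSO was made separately for JJN3 and for the H929 labels with edgeR 4.0.16 under R 4.3.3 (TMM, filterByExpr, quasi-likelihood test, Benjamini-Hochberg adjustment). Differences between the lines were tested over all 8 libraries. The script was tested on simulated data. Replicate numbers were checked for pairing. With correlations of deviations of 0.00849 (JJN3) and -0.0594 (H929 labels), they did not pair the libraries. Replicate libraries differed by more than sampling noise. Lengths and positions are those of GENCODE on GRCh37. Alternatives were DESeq2 1.42.0, its size factors, total counts, other filters and fold limits, a single fit of all libraries, the replicate number as a block, leaving out each library, and, chosen after seeing the data, the longest transcript as length.

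The members and gene lists were chosen with earlier results of these data known. Named were all members, and in each list up to 2 genes with the largest rise and 2 with the largest fall among those called in JJN3 (average log2 CPM no lower than 3). Also named were both MLXIP targets, MYCN, MYCL and MLXIPL, the 5 genes most like MYC, and some of the genes that overlap a member.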

Additional observations from a re-analysis of the deposited data

Results flagged for a closer look

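For 9 of the 10 members, the log2 fold change between the H929 labels differed from that in JJN3 by the interaction test of edgeR, with Benjamini-Hochberg adjustment over 16122 genes. The difference, H929 labels minus JJN3, was -3.31 for MYC, -2.46 for MXD1, -1.20 for MXI1, -0.93 for MGA, -0.84 for MLXIP, -0.78 for MAX and -0.62 for MNT. It was 1.57 for MXD3 and 1.15 for MLX. Over all genes tested, 53.7% were called in this contrast. For MNT the call was lost with total-count scaling and without the second JJN3 DMSO library, where the value was -0.50. Treatment and the source of the H929-labelled libraries cannot be told apart in any of these values.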

How the results depend on the processing

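Of 740 values of the members under alternative settings, 693 kept their direction and their side of the threshold, 23 lost the call, 15 gained it and 9 changed sign. All 9 belong to MNT between the THZ1 groups, whose value of -0.00867 became 0.0144 with DESeq2, 0.0024 with DESeq2 size factors, 0.11 with total counts, 0.0412 with no filter, 0.00600 with a filter of 1 CPM in 2 libraries and up to 0.0260 without single libraries (from -0.0021). With a fold limit of 1 on the log2 scale, members lower and higher in JJN3 were 1 and 2, with 1006 and 1397 of all genes. Under the H929 labels 1 member was then lower, with 3146 of 14863 genes, and 3 were lower in the interaction, with 2920 of 16122. Between the DMSO groups 0 members were lower, with 3416 of all genes, and between the THZ1 groups 3, with 3667. With the adjusted p alone, 6 members were lower under the H929 labels, with 6081 of 14863 genes, and 2 between the DMSO groups, with 6072 of 16122. Leaving out 1 library gave 0 to 1 member lower between the DMSO groups, where 4805 to 5128 of all genes were. It was 0 without the first library of JJN3 DMSO or JJN3 THZ1. Total-count scaling moved the median of all genes in JJN3 to -0.10 and that of the interaction to 0.18. MXD3 then lost its call in JJN3 (4 members higher, with 2353 of all genes). With the replicate number as a block, 2 members were lower and 6 higher in JJN3, MNT being added, with 3013 lower and 2889 higher of all genes. Under the H929 labels 3 members were lower and 2 higher, with 4783 and 4855 of all genes. The block thus made 1 new call among the members in these comparisons. Signs also changed for genes with values near 0. MYCN in JJN3 became -0.0292 with total counts. Without 1 library at a time, MYCN ran from -0.145 to 0.276 in JJN3, TXNIP from -0.0497 to 0.141 under the H929 labels, and the interaction from -0.0699 to 0.169 for DCTPP1 and from -0.0123 to 0.389 for CDK4. The cause was not tested. With the longest transcript as length, the ratio of MYC to the 6 competing genes was 7.52 and 7.71 with DMSO and 2.04 and 2.33 with THZ1 in JJN3. At 2 libraries a group, the test borrows its spread across genes.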

Other observations

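CACGTG stood in 13 of 33 promoters of the ribosome biogenesis list (39.4%), 8 of 25 of the nucleotide, polyamine and one-carbon list (32.0%), 7 of 25 of the growth list (28.0%), 3 of 10 of the cell cycle list (30.0%) and 4 of 15 of the MYC-repressed list (26.7%), beside 7.26% of all promoters. Among the MYC-activated genes in JJN3, 31 had the hexamer in a promoter, of which 22 were called lower, with a median log2 fold change of -0.88. Of 36 with a promoter but without it, 19 were lower, with a median of -0.53, and 16 had no promoter in the table. Under the H929 labels, 21 of the 31 and 20 of the 36 were lower, with medians of -0.97 and -0.69. Called lower over all genes tested were 21.3% in JJN3 and 32.6% under the H929 labels, and all genes were not split by the hexamer. These are descriptions, and the difference between listed genes with and without the hexamer was not tested.

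The antisense RNA at the start of MXI1, RP11-549L6.3, had 0 counts in both JJN3 libraries with DMSO and 15 and 6 with THZ1. It shares 205 exon bases with MXI1, and without the strand setting of the counting these reads cannot be told apart from those of MXI1.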
